A study of Arabidopsis thaliana with 8 samples.

Results

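The jasmonate genes described here are 34 loci fixed by locus code, out of 33557 in the deposited tables: enzymes that make and turn over jasmonate, JAZ repressors, the activators MYC2 to MYC4, the receptor COI1 and the outputs VSP1, VSP2 and CORI3. They were measured by RNA sequencing in whole Arabidopsis thaliana seedlings at 7 days after growth in long days on plates. The groups were dd-2, the double mutant carrying both dek3-2 and dek4-2, then dek3-2 alone and dek4-2 alone, and the wild type Col-0, with 2 libraries each. DEK3 and DEK4 encode chromatin proteins, and the study set out to identify the transcripts altered when they are mutated. Each mutant was represented by 1 allele per gene, the labels do not give the type of lesion, and each library held RNA of many cell types. In such bulk samples fewer cells of a type and less RNA per cell cannot be told apart. The labels call the 2 libraries of a group biological replicates. All 34 members were found in every table, and 30 reached the level needed for testing, an average across the libraries of 1 FPKM or more (FPKM is a fragment count divided by gene length and library size).

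Jasmonate is a lipid hormone of wounding, defence, root growth and fertility. It is made from linolenic acid by lipoxygenases, allene oxide synthase (AOS) and allene oxide cyclases (AOC) in the plastid, and then by OPR3, OPCL1 and the acyl-CoA oxidase ACX1 in the peroxisome. JAR1 joins it to isoleucine, the conjugate brings COI1 and JAZ proteins together, the JAZ proteins are degraded, and MYC factors are released to switch on genes that include the JAZ genes and many of the synthesis genes themselves.

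MYC factors bind the G-box, CACGTG, so the 250 bases before each RefSeq gene start (TAIR10.1) were searched for those letters, whose reverse complement is the same. The motif stood in 6 of the 34 member windows, 17.65 percent, against 1780 of 27437 windows of all protein-coding genes on chromosomes 1 to 5, 6.49 percent. The 6 were AOS, ACX1, JAZ2, JAZ3, JAZ7 and JAZ8. Shown here are the windows of JAZ3, which has 2 copies, of JAZ2 and AOS, which have 1 each, and of CORI3, which has none and is the member that differed most between genotypes. Each is written 5′ to 3′ on the strand of its gene, with the motif in capitals: JAZ3 is chr3:6119457-6119706 on the plus strand, JAZ2 chr1:28150447-28150696 on the minus strand, AOS chr5:17099596-17099845 on the minus strand and CORI3 chr4:12310129-12310378 on the plus strand.
JAZ3: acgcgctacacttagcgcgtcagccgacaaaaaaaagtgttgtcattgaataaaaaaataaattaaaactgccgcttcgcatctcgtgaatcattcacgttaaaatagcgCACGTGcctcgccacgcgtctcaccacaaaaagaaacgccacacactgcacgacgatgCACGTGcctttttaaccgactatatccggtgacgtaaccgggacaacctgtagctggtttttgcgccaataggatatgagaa
JAZ2: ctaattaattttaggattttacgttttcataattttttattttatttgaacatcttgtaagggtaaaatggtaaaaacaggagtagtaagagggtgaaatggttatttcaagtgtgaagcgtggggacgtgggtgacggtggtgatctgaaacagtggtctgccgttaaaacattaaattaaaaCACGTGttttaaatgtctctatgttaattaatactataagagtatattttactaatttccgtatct
AOS: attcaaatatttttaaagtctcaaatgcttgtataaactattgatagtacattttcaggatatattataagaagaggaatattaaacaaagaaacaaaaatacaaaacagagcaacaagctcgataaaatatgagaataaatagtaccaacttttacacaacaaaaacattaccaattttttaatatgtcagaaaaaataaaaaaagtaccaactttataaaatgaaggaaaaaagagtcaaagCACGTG
CORI3: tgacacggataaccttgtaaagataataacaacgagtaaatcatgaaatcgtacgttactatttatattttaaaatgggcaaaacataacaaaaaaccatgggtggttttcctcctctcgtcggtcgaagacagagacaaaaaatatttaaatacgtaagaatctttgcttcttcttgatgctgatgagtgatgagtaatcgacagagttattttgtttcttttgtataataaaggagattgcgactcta
The copies in JAZ3 begin 140 and 82 bases before the RefSeq start, that in JAZ2 66 bases and that in AOS 6 bases. For some members the RefSeq start lies upstream of the start in the deposited positions, and the bases between were not searched. The CORI3 window ends at 12310378 and its deposited start is 12310619. For AOS, on the minus strand, the window begins at 17099596 and the deposited start is 17099395. A match, or the lack of 1, is a description of the letters in this window only.

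The mutated genes were read first as a check of the labels. DEK3 stood at 19.9 and 17.5 FPKM in dd-2, 16.7 and 13.3 in dek3-2, 47.3 and 80.7 in dek4-2, and 48.3 and 70.2 in Col-0. The log2 difference from Col-0 was -1.59 in dd-2 (limma adjusted p = 0.0828) and -1.90 in dek3-2 (0.461). DEK4 stood at 16.3 and 15.4 FPKM in dd-2, 38.0 and 27.0 in dek3-2, 10.3 and 18.4 in dek4-2, and 23.7 and 35.2 in Col-0. Each gene was therefore lowest in the libraries whose labels carry its mutant allele, with transcript still present, although neither gene was called. Depth was estimated per library by fitting the step that brought 68 to 192 low values nearest to whole numbers of fragments. After that fit 93.0 to 98.5 percent lay within 0.15 of a whole number, a share that the fit itself maximised or nearly so. By this estimate dd-2 replicate 2 was the shallowest at 0.807 times the mean depth and Col-0 replicate 2 the deepest at 1.13 times. Seed storage genes set one library apart: the 9 genes of that list summed to 1781 FPKM in dek3-2 replicate 1, 122.9 in dd-2 replicate 2 and 2.84 to 19.7 in the other 6 libraries, with none at 0.

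In Col-0 seedlings and in all mutants the synthesis genes were expressed over a wide span of levels. AOC2 (AT3G25770) had the highest level, 170.1 to 233 FPKM over the 8 libraries, and AOC1 (AT3G25760) had 141 to 215 FPKM, so their ranges overlapped. ACX1 (AT4G16760), at 86.5 to 103 FPKM, was separate from both and from AOS (AT5G42650), at 42.6 to 55.6 FPKM. OPR3 (AT2G06050), which reduces the cyclopentenone precursor, lay at 35.4 to 42.9 FPKM, and LOX2 (AT3G45140), the leaf lipoxygenase of wound responses, at 21.8 to 48.7 FPKM, a range that overlapped those of AOS, OPR3 and AOC4 (AT1G13280; 23.2 to 34.2 FPKM). LOX6 (AT1G67560; 13.02 to 17.7 FPKM) and OPCL1 (AT1G20510; 8.59 to 12.2 FPKM) followed in that order without overlap. The lowest were LOX3 (AT1G17420; 4.18 to 5.97 FPKM), AOC3 (AT3G25780; 1.92 to 4.10 FPKM) and LOX4 (AT1G72520; 1.65 to 3.24 FPKM), of which AOC3 and LOX4 overlapped.

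Among the JAZ repressors JAZ12 (AT5G20900) stood alone at 73.1 to 87.1 FPKM. JAZ6 (AT1G72450) and JAZ9 (AT1G70700) lay together at 31.6 to 44.5 FPKM, JAZ2 (AT1G74950) and JAZ1 (AT1G19180) together at 13.6 to 25.7 FPKM, and JAZ3 (AT3G17860; 4.04 to 4.67 FPKM) and JAZ10 (AT5G13220; 2.62 to 3.94 FPKM) came next without overlap. JAZ4 (AT1G48500; 1.03 to 2.41 FPKM) and JAZ5 (AT1G17380; 0.511 to 1.41 FPKM) were close to the filter, and JAZ7 (AT2G34600) and JAZ8 (AT1G30135), which lack the canonical degron that COI1 (AT2G39940) recognises, were under it. JAZ7 had 0.123 to 0.796 FPKM. JAZ8 had 0 to 0.703 FPKM and was listed at 0 in dd-2 replicate 2. By RefSeq exon length and the estimated depth its highest value stood for about 13.1 fragments. The 2 other members under the filter were CYP94B3 (AT3G48520), an enzyme that oxidises the active conjugate, with a mean of 0.996 FPKM, and JMT (AT1G19640), which makes methyl jasmonate, with a mean of 0.569 FPKM. JAZ5, with a mean of 1.04 FPKM, was the lowest member inside the filter.

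The other parts of the pathway were moderately expressed. COI1 and JAZ12 each overlap 1 other annotated gene, and since the use of strand in counting is not stated, their values may hold reads of that gene. JAR1 (AT2G46370) lay at 37.1 to 44.1 FPKM, COI1 at 19.7 to 23.5 FPKM and MYC3 (AT5G46760) at 38.8 to 48.3 FPKM, above MYC4 (AT4G17880; 15.1 to 20.5 FPKM) and MYC2 (AT1G32640; 15.02 to 18.04 FPKM), whose ranges overlapped. The turnover enzyme CYP94C1 (AT2G27690) had 0.898 to 1.90 FPKM. The outputs were low apart from CORI3 (AT4G23600), a coronatine-induced cystine lyase, at 11.9 to 22.9 FPKM: the acid phosphatase genes VSP1 (AT5G24780) and VSP2 (AT5G24770), standard markers of an active jasmonate response, had 2.45 to 4.67 and 0.679 to 1.55 FPKM. The plot of levels in every library shows the span of the pathway and how small the differences between genotypes are beside it.

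**Figure D1:**
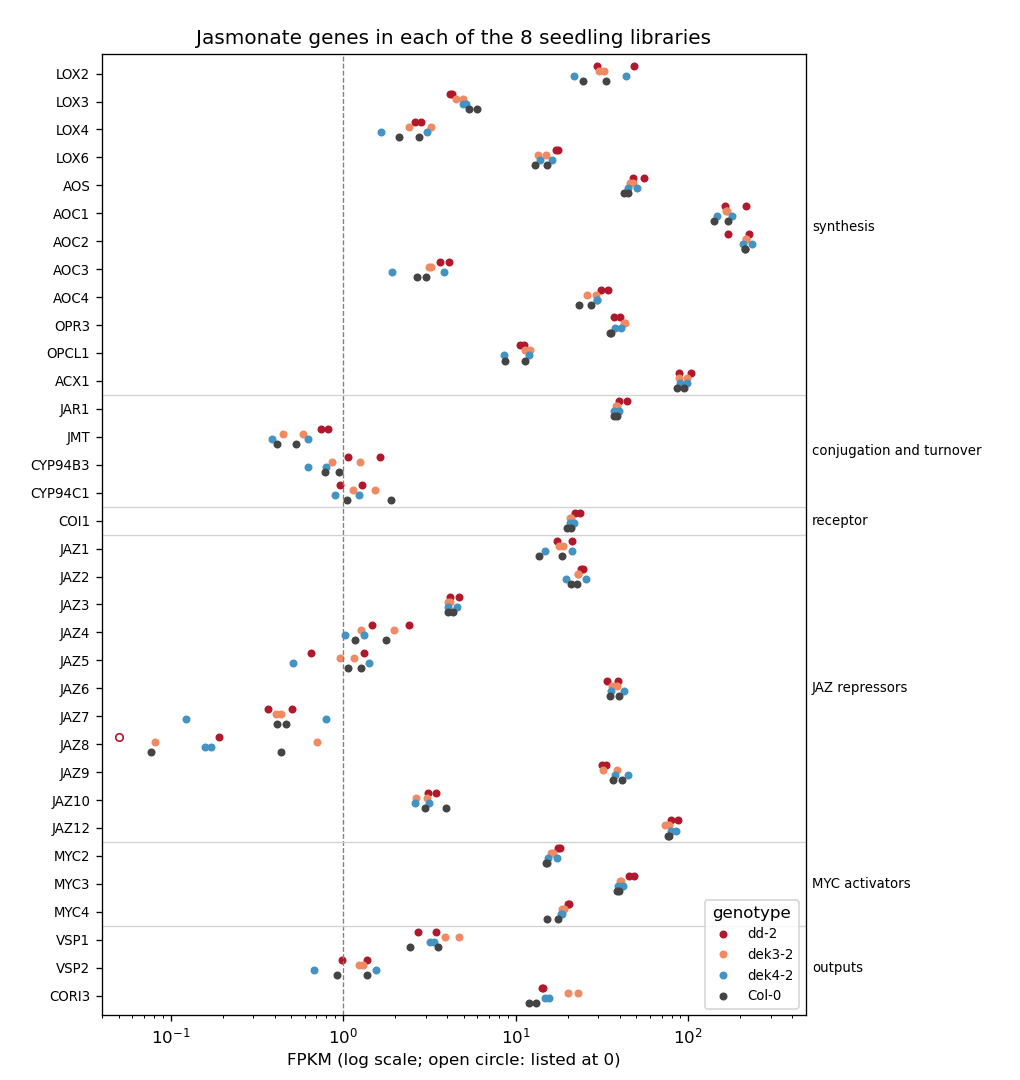
Level of each of the 34 jasmonate genes (FPKM, log axis) in each of the 8 libraries, grouped by role, with 1 point per library coloured by genotype and the dashed line at 1 FPKM. AOC2 and AOC1 are highest, JAZ7 and JAZ8 lowest, and the genotypes lie close together in most rows, with CORI3 in dek3-2 set apart.

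The first question for these genes was whether any differed between genotypes. None of the 30 tested members passed limma (Benjamini-Hochberg adjusted p below 0.05 over 19017 genes) in any of 7 comparisons. In dd-2 against Col-0 there were 0 of 30, where 0.252 percent of all genes were called, and the lowest adjusted p of a member was 0.138. In dek3-2 against Col-0 there were 0 of 30, where 0.0421 percent were called, with a lowest adjusted p of 0.0954. In dek4-2 against Col-0 there were 0 of 30, where 0.021 percent were called. The same 0 of 30 was found in dd-2 against dek3-2 (0.0263 percent of all genes), dd-2 against dek4-2 (0.0421 percent), dek4-2 against dek3-2 (0.0263 percent) and the interaction (0.0158 percent), which sets the dek4-2 effect with dek3-2 against that without it: the log2 change of dd-2 from dek3-2 minus that of dek4-2 from Col-0.

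At an unadjusted limma p below 0.05 there were 7 members of 30 in dd-2 against Col-0, 6 higher and 1 lower, where 18.6 percent of all genes reached that level. That split depended on the scaling: with median-of-ratios scaling there were 3 members, 1 higher and 2 lower (16.4 percent of all genes), and with each library's trends with gene length and GC removed there were 5, 2 higher and 3 lower (17.4 percent). In dek3-2 there were 3 of 30, all higher, where 3.44 percent did, and in dek4-2 there was 1 of 30, higher, where 1.97 percent did. The numbers were 4 in dd-2 against dek3-2 (10.6 percent of all genes), 2 in dd-2 against dek4-2 (12.4 percent), 1 in dek4-2 against dek3-2 (2.73 percent) and 2 in the interaction (3.64 percent). The median difference of the members on the log2(FPKM + 1) scale was 0.13 in dd-2, 0.08 in dek3-2 and 0.06 in dek4-2, beside medians of 0.08, 0.04 and 0.00 over all genes tested. With median-of-ratios scaling the medians of the members were 0.06, 0.06 and 0.10, beside 0.00, 0.01 and 0.04 over all genes tested. These 3 comparisons share the 2 Col-0 libraries.

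The fit also bounded how large a difference could have been missed. In each mutant against Col-0 the 95% interval of the difference lay within 2-fold either way for 29 of the 30 members, LOX2 being the exception, on the log2(FPKM + 1) scale, which understates changes of low genes. It lay within 1.5-fold for 20 members in dd-2, 20 in dek3-2 and 25 in dek4-2. The fitted differences ran from -0.35 to 0.40 in dd-2, from -0.22 to 0.73 in dek3-2 and from -0.25 to 0.27 in dek4-2.

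**Figure D2:**
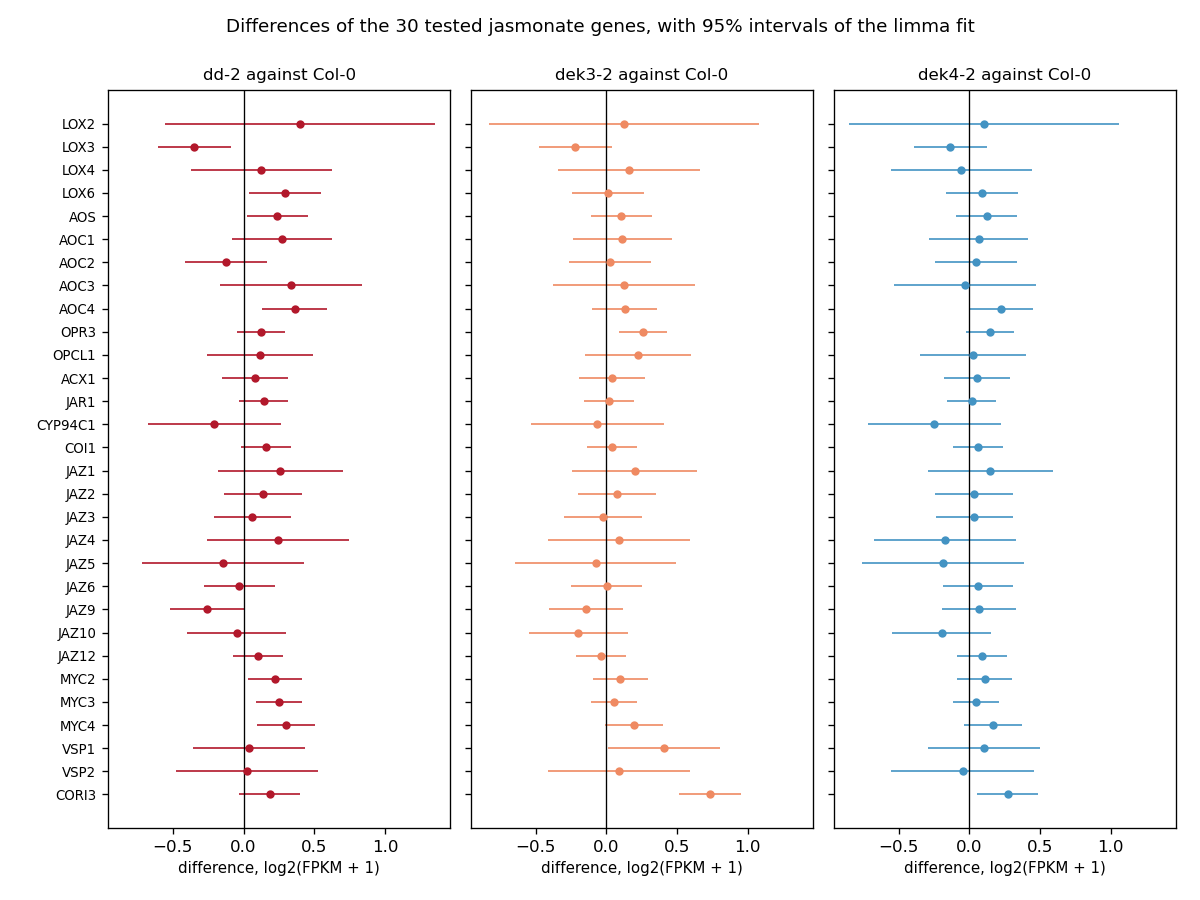
Difference of each mutant from Col-0 on the log2(FPKM + 1) scale for the 30 tested members (points) with 95% intervals of the limma fit (lines), 1 panel per mutant, dd-2 at the left. All points but CORI3 in dek3-2 lie between -0.35 and 0.41, and LOX2 has the widest interval.

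CORI3 was the member with the widest range of group means. It stood at 14.2 and 14.4 FPKM in dd-2, 19.97 and 22.9 in dek3-2, 15.7 and 14.8 in dek4-2, and 11.9 and 13.06 in Col-0. Both dek3-2 libraries were above the other 6, and both Col-0 libraries were below the other 6. CORI3 lies on chromosome 4 (12310619 to 12313212, TAIR10), 1.12 Mb from DEK3. In dek3-2 against Col-0 the log2 difference was 0.73 ± 0.09 (SE), a 1.66-fold difference with a 95% interval of 1.43 to 1.93, and its adjusted p in limma was 0.0954 (unadjusted 4.64e-05). It was the 1 member whose fitted difference from Col-0 exceeded 1.5-fold in any mutant, and 1.13 percent of all genes did so in dek3-2.

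The same gene was nearer to Col-0 where dek4-2 was also present. In dd-2 against dek3-2 the CORI3 difference was -0.55 (limma adjusted p = 0.158), in dd-2 against Col-0 it was 0.18 (0.322), and in dek4-2 against Col-0 it was 0.27 (1). The dd-2 minus Col-0 value of CORI3 was 0.10 with median-of-ratios scaling, 0.06 with length and GC trends removed and 0.12 without Col-0 replicate 1. In dek4-2 against dek3-2 it was -0.46 (0.999). The interaction was -0.82, with an unadjusted p of 0.000248 and an adjusted p of 0.489. Without dek3-2 replicate 1, the library with the seed storage signal, the dek3-2 difference was 0.83 (limma adjusted p = 0.140), and without dek3-2 replicate 2 it was 0.64 (0.264).

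VSP1 and OPR3 were, with CORI3, the members whose dek3-2 libraries were both above the other 6, 3 of 30 members, where 2.83 percent of all genes tested had that pattern. VSP1 (chromosome 5, 8507590 to 8508957) stood at 2.70 and 3.47 FPKM in dd-2, 3.88 and 4.67 in dek3-2, 3.20 and 3.34 in dek4-2, and 2.45 and 3.56 in Col-0. Its difference in dek3-2 was 0.41 on the log2 scale (limma adjusted p = 1), and the highest Col-0 library lay just under the lowest dek3-2 library. Without Col-0 replicate 1 the difference was 0.21, and without Col-0 replicate 2 it was 0.61. OPR3 (chromosome 2, 2359114 to 2362302) stood at 40.3 and 37.1 FPKM in dd-2, 42.9 and 42.2 in dek3-2, 37.8 and 40.9 in dek4-2, and 35.5 and 35.4 in Col-0. Its difference in dek3-2 was 0.26 (limma adjusted p = 1), and no other genotype overlapped dek3-2. VSP2, the neighbour of VSP1 at 5.37 kb, stood at 0.991 and 1.37 FPKM in dd-2, 1.297 and 1.24 in dek3-2, 0.679 and 1.55 in dek4-2, and 0.923 and 1.37 in Col-0, and its groups overlapped. The coding sequences of VSP1 and VSP2 are 89.5 percent identical, with a longest shared run of 54 bases. Whether fragments from one were counted for the other was not tested.

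On the FPKM as deposited the MYC activators were highest in dd-2, by small amounts that did not pass the test. MYC2 stood at 18.04 and 17.5 FPKM in dd-2, 16.1 and 16.4 in dek3-2, 15.4 and 17.3 in dek4-2, and 15.02 and 15.2 in Col-0. MYC3 stood at 48.3 and 45.4 FPKM in dd-2, 40.3 and 41.0 in dek3-2, 39.3 and 41.96 in dek4-2, and 38.8 and 39.6 in Col-0. For MYC4 the values were 20.5 and 20.1 FPKM in dd-2, 18.4 and 19.1 in dek3-2, 18.3 and 18.5 in dek4-2, and 15.1 and 17.6 in Col-0. In each of the 3 genes both dd-2 libraries were above the other 6, as they were in 7 of 30 members (AOC4, LOX6, COI1 and JAR1 besides), 23.3 percent, where 17.1 percent of all genes were. That order depended on the scaling: the median-of-ratios factors were 1.042 and 1.065 in dd-2 and 0.9228 in dek4-2 replicate 1. After division by the factors a dek4-2 library lay above a dd-2 library in MYC2, MYC4, AOC4, COI1 and JAR1. In LOX6 the order held, and in MYC3 barely so.

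The log2 differences of dd-2 from Col-0 were 0.22 for MYC2, 0.25 for MYC3 and 0.30 for MYC4, with limma adjusted p of 0.218, 0.143 and 0.153. MYC3 in dd-2 was also at 0.20 against dek3-2 (0.375) and at 0.20 against dek4-2 (0.343), where the dek4-2 value was 0.08 with median-of-ratios scaling. With each library's trends with gene length and GC removed the dd-2 minus Col-0 differences were 0.12 for MYC2, 0.14 for MYC3 and 0.16 for MYC4. Of the 4 tested members with a G-box in the window, AOS, ACX1, JAZ2 and JAZ3, none passed in dd-2 against Col-0. Neither did any other member, and 0.252 percent of all genes did, so 4 genes cannot set the G-box members apart.

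**Figure D3:**
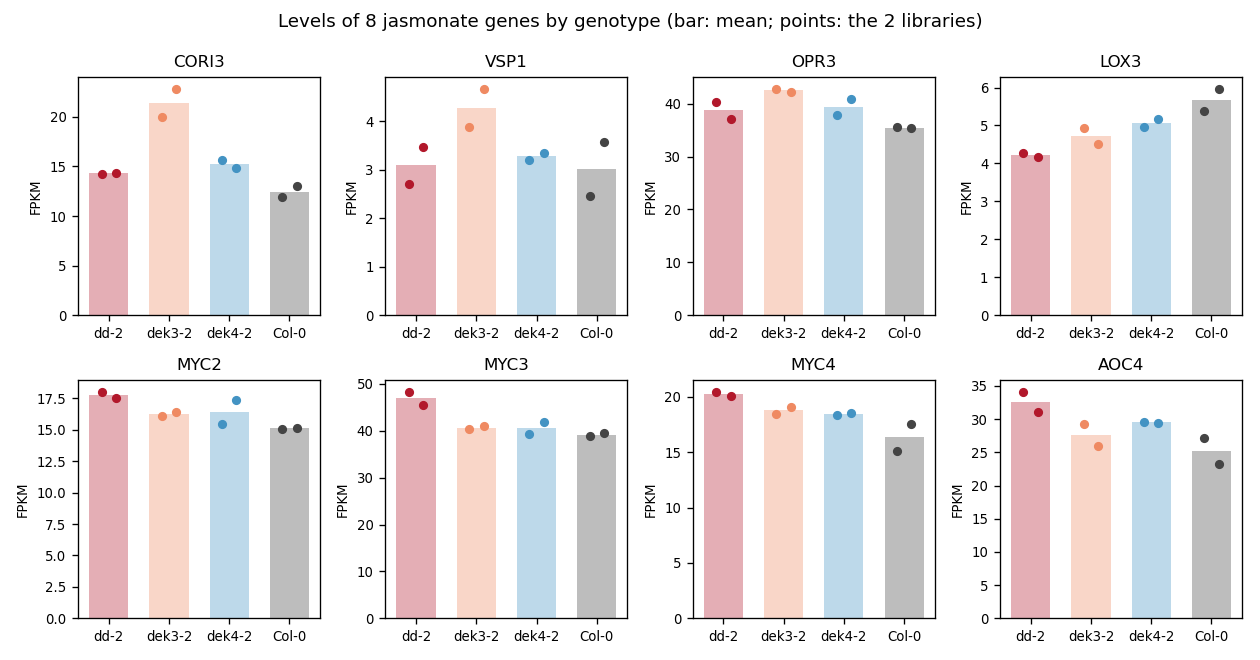
Levels (FPKM) of CORI3, VSP1, OPR3, LOX3, MYC2, MYC3, MYC4 and AOC4 by genotype, with bars for the mean of 2 libraries and points for each library. CORI3 is highest in dek3-2 at 19.97 and 22.9 FPKM, while MYC2, MYC3, MYC4 and AOC4 are highest and LOX3 lowest in dd-2.

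The synthesis enzymes differed in direction among themselves, and none passed the test. AOC4 (chromosome 1, 4547454 to 4548875) stood at 34.2 and 31.1 FPKM in dd-2, 29.2 and 26.0 in dek3-2, 29.6 and 29.4 in dek4-2, and 27.2 and 23.2 in Col-0. Its dd-2 minus Col-0 difference of 0.36 had the lowest limma adjusted p of the members in that comparison, 0.138, and it was at 0.23 against dek3-2 (0.458). LOX3, a lipoxygenase needed with LOX4 for fertility, was lower in dd-2, with 4.28 and 4.18 FPKM in dd-2, 4.93 and 4.52 in dek3-2, 4.96 and 5.17 in dek4-2, and 5.37 and 5.97 in Col-0. Both dd-2 libraries were below the other 6, which was so in no other member and in 7.28 percent of all genes. Both Col-0 libraries were above the other 6, also in LOX3 alone, where 2.76 percent of all genes were. Its differences were -0.35 in dd-2 (limma adjusted p = 0.174) and -0.22 in dek3-2 (1).

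LOX6, a lipoxygenase of roots and xylem, stood at 17.1 and 17.7 FPKM in dd-2, 14.9 and 13.4 in dek3-2, 13.8 and 16.2 in dek4-2, and 13.02 and 15.1 in Col-0. The dd-2 libraries were above the rest, with a difference of 0.29 from Col-0 (limma adjusted p = 0.215) and 0.28 from dek3-2 (0.421). LOX2 stood at 48.7 and 29.7 FPKM in dd-2, 32.5 and 30.3 in dek3-2, 21.8 and 43.7 in dek4-2, and 24.5 and 33.5 in Col-0. The libraries within dd-2 and within dek4-2 were farther apart than the lowest and highest group means, dek3-2 lay inside the Col-0 range, and the dd-2 minus Col-0 difference of 0.40 had an adjusted p of 0.598, and was 0.05 without dd-2 replicate 1.

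AOS, which commits the pathway to jasmonate, had 55.6 and 47.8 FPKM in dd-2, 48.0 and 45.7 in dek3-2, 44.8 and 50.3 in dek4-2, and 42.6 and 44.5 in Col-0, with a dd-2 minus Col-0 difference of 0.24 (limma adjusted p = 0.229), and 0.13 without dd-2 replicate 1. AOC3 had 3.63 and 4.10 FPKM in dd-2, 3.14 and 3.23 in dek3-2, 1.92 and 3.85 in dek4-2, and 2.69 and 3.00 in Col-0 (0.34, adjusted p = 0.416). Both genes were above Col-0 in both dd-2 libraries, and the dek4-2 values of AOC3 spanned those of dek3-2 and Col-0. The other synthesis members, LOX4, OPCL1 and ACX1, overlapped Col-0 in dd-2.

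AOC1, AOC2 and AOC3 stand in tandem on chromosome 3 (9403883 to 9410567, 6.68 kb). AOC1 had 215 and 162.5 FPKM in dd-2, 168.6 and 166.2 in dek3-2, 147.6 and 178.2 in dek4-2, and 141 and 169.7 in Col-0. AOC2 had 226 and 170.1 FPKM in dd-2, 216 and 217 in dek3-2, 208 and 233 in dek4-2, and 213 in both Col-0 libraries. AOC1 overlapped between all genotypes, AOC2 was just above Col-0 in dek3-2 and otherwise overlapped, and the AOC1 difference of dd-2 from Col-0 was 0.27 (limma adjusted p = 0.359). Their ratio did separate dd-2: AOC1 over AOC2 was 0.953 and 0.955 in dd-2, 0.779 and 0.765 in dek3-2, 0.710 and 0.764 in dek4-2, and 0.660 and 0.796 in Col-0. This ratio was chosen after its values were seen, was not tested, and shows an unequal difference between the genes, not which of them differed.

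The coding sequences of AOC1 and AOC2 are 90.3 percent identical over 762 aligned bases, with a longest shared run of 47 bases. How fragments were divided between them may bear on that ratio, which was not tested. The aligned stretch around the longest run shows what separates them, coding bases 549 to 668 of AOC1 and 546 to 665 of AOC2 in RefSeq TAIR10.1, with the differing bases in capitals.
AOC1: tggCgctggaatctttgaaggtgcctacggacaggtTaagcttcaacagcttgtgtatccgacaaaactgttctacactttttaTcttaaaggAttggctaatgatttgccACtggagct
AOC2: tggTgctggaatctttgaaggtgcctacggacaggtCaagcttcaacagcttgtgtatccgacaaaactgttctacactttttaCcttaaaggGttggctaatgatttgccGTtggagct
In these 120 bases 6 differ. AOC3 is 82.7 percent identical to AOC1, with a shared run of 73 bases, and AOC4, on another chromosome, is 74.7 percent identical.

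**Figure D4:**
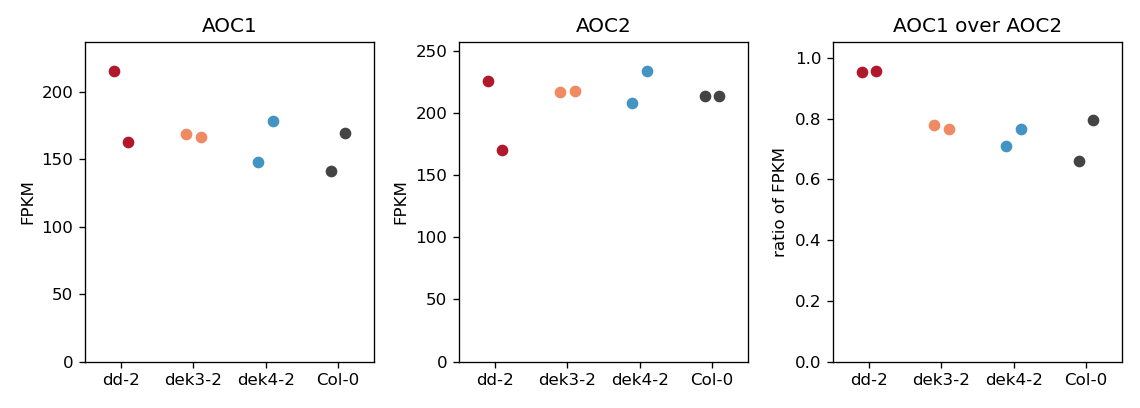
Levels of AOC1 and AOC2 (FPKM) and their ratio by genotype, 1 point per library. The ratio is 0.953 and 0.955 in dd-2 and 0.660 to 0.796 in the other 6 libraries, while the dd-2 levels of both genes overlap those of Col-0.

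No JAZ repressor passed the test, and their summed level overlapped between the genotypes. JAZ9 (chromosome 1, 26654768 to 26657064) stood at 33.4 and 31.6 FPKM in dd-2, 32.2 and 38.6 in dek3-2, 37.8 and 44.5 in dek4-2, and 36.8 and 41.3 in Col-0. It was lower in both dd-2 libraries than in dek4-2 and Col-0, at -0.33 (limma adjusted p = 0.341) and -0.26 (0.276) on the log2 scale, but not than in dek3-2. JAZ1, an early jasmonate-induced repressor, had 21.2 and 17.4 FPKM in dd-2, 17.9 and 18.9 in dek3-2, 14.9 and 21.1 in dek4-2, and 13.6 and 18.6 in Col-0. Its groups overlapped, with a dd-2 minus Col-0 difference of 0.26 (0.474). JAZ4 had 1.48 and 2.41 FPKM in dd-2, 1.28 and 1.98 in dek3-2, 1.03 and 1.32 in dek4-2, and 1.17 and 1.77 in Col-0 (0.25, 0.553), and dd-2 overlapped Col-0 here too. The summed FPKM of the 11 JAZ genes was 216 and 197.5 in dd-2, 196 and 204 in dek3-2, 202 and 224 in dek4-2, and 194 and 211 in Col-0.

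Counted over the members on the FPKM as deposited, both dd-2 libraries were above both Col-0 libraries in 13 of 30 (38 percent of all genes) and below in 2, LOX3 and JAZ9 (15.3 percent). In dek3-2 there were 11 above (20.9 percent of all genes) and 1 below (10.1 percent), and in dek4-2 there were 7 above (12 percent) and 1 below (12.1 percent). LOX3 was the 1 member below Col-0 in each of the single mutants. Both Col-0 libraries lay below the other 6 for 5 members, AOS, OPR3, MYC2, MYC4 and CORI3, where 4.85 percent of all genes did. Between the mutants, dd-2 was above dek3-2 in 12 members (27 percent of all genes) and below in 5 (16.7 percent), and above dek4-2 in 8 (32.7 percent) and below in 3 (12.2 percent). Likewise dek4-2 was above dek3-2 in 3 members (8.06 percent) and below in 3, CORI3, OPR3 and VSP1 (18.8 percent). No member had both dek3-2 libraries below the other 6 (1.7 percent of all genes), both dek4-2 libraries above them (0.715 percent) or both dek4-2 libraries below them (2.81 percent). In CORI3 and OPR3, 2 of 30 members, dek4-2 lay above Col-0 while dd-2 lay below dek3-2, and 2.96 percent of all genes had such opposite directions. In CORI3 alone dek3-2 lay above Col-0 while dd-2 lay below dek4-2, where 3.1 percent of all genes had opposite directions.

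Within a genotype most members often differed between the libraries in the same direction. Of the 30 tested members 20 were higher in dd-2 replicate 1 than in replicate 2, by a median of 0.09 on the log2 scale. In dek3-2, 18 were higher in replicate 2, in dek4-2 26 were, by a median of 0.18, and in Col-0 23 were, by a median of 0.13. Over all genes 51.4, 41.1, 65.6 and 54.4 percent were higher in replicate 2 of dd-2, dek3-2, dek4-2 and Col-0, with medians of 0.01, -0.04, 0.07 and 0.02. The 6 early touch and wound genes of a marker list summed to 220.2 and 204 FPKM in dd-2 replicates 1 and 2, 175 and 225 in dek3-2, 186 and 213 in dek4-2, and 165 and 247 in Col-0. In each genotype the library with the higher sum was thus also the library in which more members were higher. TCH3, at 75.6 to 114 FPKM, was the largest part of that sum. Single markers ran against it: TCH4 and ZAT12 in dd-2, WRKY40 in dek3-2 and ZAT10 in dek4-2. The part of handling or wounding in the member values was not tested.

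Root, green tissue and clock markers were summed beside these values, and none of their tested genes was called in dd-2 against Col-0. The clock genes CCA1 and PRR9 averaged below 1 FPKM and were not tested. The 7 root markers summed to 1469 and 1228 FPKM in dd-2 and 1053 and 964 in dek3-2. They summed to 1019 and 1015 in dek4-2 and 936 and 884 in Col-0, and PYK10 made up most of each sum. In dd-2 7 of 7 had a higher mean than in Col-0, where fitted differences were above 0 for 65.88 percent of all genes. In dek3-2 5 of 7 were higher (64.71 percent of all genes). In dek4-2 only PYK10 was higher and the other 6 were lower (51.1 percent of all genes above 0). The 6 green tissue markers summed to 23538 and 22881 FPKM in dd-2, 26569 and 27257 in dek3-2, 30024 and 26469 in dek4-2, and 32801 and 28242 in Col-0, with 4 of 6 lower in dd-2 than in Col-0. The 9 clock genes summed to 329 and 321 FPKM in dd-2 and 311 and 298 in dek3-2. They summed to 295 and 303 in dek4-2 and 313 and 307 in Col-0, most of it ELF4 and TOC1. Of the 9, 8 had a higher mean than in Col-0 in dd-2, 7 in dek3-2 and 6 in dek4-2. No marker of these lists was at 0 in any library, and their part in the member differences was not tested.

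The wider pathway was read from 31 other jasmonate genes, among them JAZ11, the co-repressors NINJA and TPL, the JAM repressors, further oxidases of jasmonate and the beta-oxidation enzymes. Of these 24 passed the filter, and 0 of 24 were called by limma in any of the 7 comparisons, with 5 at an unadjusted p below 0.05 in dd-2 against Col-0, 1 in dek3-2 and 0 in dek4-2, where 18.6, 3.44 and 1.97 percent of all genes reached that level. Their median log2 difference was 0.10 in dd-2, 0.04 in dek3-2 and 0.04 in dek4-2. CYP94B1, a hydroxylase of the conjugate, had 5.80 and 5.08 FPKM in dd-2, 3.61 and 3.89 in dek3-2, 4.67 and 4.47 in dek4-2, and 4.19 and 3.19 in Col-0. Its difference from Col-0 was 0.46 in dd-2 (limma adjusted p = 0.155) and 0.26 in dek4-2 (1), and both mutants lay above Col-0 without overlap. The dek4-2 difference was 0.10 without Col-0 replicate 2 and 0.41 without Col-0 replicate 1.

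FAD7, a plastid desaturase that supplies linolenic acid, had 190.5 and 184 FPKM in dd-2, 198 and 209.7 in dek3-2, 215 and 209.9 in dek4-2, and 217 and 216 in Col-0. It was at -0.21 in dd-2 (limma adjusted p = 0.185), the lowest of the groups. MFP2, a beta-oxidation enzyme, was at 0.17 in dek3-2, with 72.0 and 69.3 FPKM there and 62.3 and 63.0 in Col-0 (adjusted p = 1). ANAC019, a NAC factor downstream of MYC2, had 15.7 and 10.02 FPKM in dd-2, 12.9 and 10.7 in dek3-2, 11.3 and 12.7 in dek4-2, and 9.52 and 7.45 in Col-0. Its differences from Col-0 were 0.52 in dd-2 (limma adjusted p = 0.226), 0.43 in dek3-2 and 0.46 in dek4-2 (1 each for the single mutants). All 3 mutants were above Col-0 in every library, and the 3 comparisons share those Col-0 libraries.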

How the data were processed

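Whole seedlings were sequenced, and 1 table per library was deposited with FPKM for each gene, a unit taken per the file headers. Per the submitters' processing notes, HISAT2, featureCounts, edgeR and the build TAIR10 were used; which program wrote the FPKM, whether strand was used and whether libraries were rescaled is not given in the sources used here. The files hold no counts, so no count test was run. Genes were compared on log2(FPKM + 1), using limma 3.58.1 (R 4.3.3; variance trend, robust estimation) and 1 model of all 8 libraries with 1 mean per genotype, on the 19017 genes averaging 1 FPKM or more. A gene was called at an adjusted p below 0.05 (Benjamini-Hochberg). The code was run on simulated data drawn under the model's own assumptions, with changes larger than any fitted for a member. That run does not show how the model handles smaller changes. Intervals are those of the fit. File positions are TAIR10, converted to count from 1. Sequences are from RefSeq TAIR10.1, whose gene ends differ from the files' for all members. Values are given per library for the 14 tested members with the widest range of group means, and for others where a comparison needed them; of the other jasmonate genes, those with the 2 smallest p per mutant were named. The members and lists were chosen with earlier results of these data known. Python 3.11.15 served for the remaining steps, with Biopython 1.88 for alignment and matplotlib 3.10.9 for plots.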

Additional observations from a re-analysis of the deposited data

Results flagged for a closer look

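CORI3 and OPR3 were each singled out because the effect of dek4-2 had opposite directions with and without dek3-2, every library being on the same side. CORI3 had 15.7 and 14.8 FPKM in dek4-2 against 11.9 and 13.06 in Col-0, but 14.2 and 14.4 in dd-2 against 19.97 and 22.9 in dek3-2. The interaction was -0.82 on the log2(FPKM + 1) scale (limma adjusted p = 0.489 over all genes, unadjusted p = 0.000248). OPR3 had 37.8 and 40.9 FPKM in dek4-2 against 35.5 and 35.4 in Col-0, and 40.3 and 37.1 in dd-2 against 42.9 and 42.2 in dek3-2. Its interaction was -0.28 (adjusted p = 1, unadjusted p = 0.0285). This pattern was found in 2 of 30 members and in 2.96 percent of all genes tested. For the effect of dek3-2 with and without dek4-2 it was found in CORI3 alone of the 30 members and in 3.1 percent of all genes. Neither interaction passed the test over all genes.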

How the results depend on the processing

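None of the 30 to 34 members tested was called in any of the 7 comparisons under any of 15 alternatives (14 for the interaction), and the lowest adjusted p of a member over all of them was 0.0603, for AOC4 in dd-2 against Col-0 with the replicate number as a block. The alternatives were a pseudocount of 0.1, keeping low genes, scaling by median of ratios, fitting only the 2 genotypes compared, the replicate block, limma without variance trend or robust estimation, library trends with gene length and GC removed, and leaving out each of the 8 libraries. All 38 log2 differences examined kept their direction in all of these. They were picked by name and include the widest ones, so their steady direction does not extend to the other differences. In dd-2 against dek4-2 the members with a difference above 0 went from 23 to 12 of 30 with median-of-ratios scaling. The share over all genes moved likewise, from 67.74 to 40.02 percent. The adjusted p of CORI3 in dek3-2 against Col-0 ran from 0.0891 to 0.455 and its log2 difference from 0.64 to 0.83. Leaving out 1 library moved LOX2 in dd-2 against Col-0 to between 0.05 and 0.75, JAZ1 to between 0.04 and 0.48, JAZ4 to between 0.01 and 0.48, AOC1 to between 0.07 and 0.47, AOS to between 0.13 and 0.35, MYC4 to between 0.19 and 0.40 and LOX6 to between 0.19 and 0.39. It moved ANAC019 to between 0.28 and 0.59 in dek3-2 and to between 0.30 and 0.62 in dek4-2. With length and GC trends removed, AOC3 was at 0.21, JAZ9 at -0.39 and FAD7 at -0.33 in dd-2 against Col-0. The adjusted p of MYC3 in dd-2 against Col-0 ran from 0.102 to 0.452, and that of AOC4 from 0.0603 to 0.448.

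The replicate number was not taken as a pairing, since the labels do not say that it marks a shared batch and same-numbered libraries deviated together with r from -0.0651 to 0.23 across genes. The replicate block left 0 members called in each comparison, though over all genes it called 305 in dd-2 against Col-0, where 48 were called without it, and 74 in dd-2 against dek3-2, where 5 were. Of the other jasmonate genes it called ST2A in dd-2 against Col-0, at 0.80 with an adjusted p of 0.0423, against 0.311 without the block. Over all genes the calls in dd-2 against Col-0 ran from 11 to 305 under the alternatives, in dek3-2 against Col-0 from 5 to 19 and in dek4-2 against Col-0 from 2 to 11, beside 48, 8 and 4. The count also ran from 1 to 74 in dd-2 against dek3-2, from 5 to 13 in dd-2 against dek4-2, from 3 to 15 in dek4-2 against dek3-2 and from 0 to 12 in the interaction, beside 5, 8, 5 and 3. The cause was not tested.

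The median difference of the members was 0.13 in dd-2 against Col-0, and 0.06 with median-of-ratios scaling, which moved the median of all genes to 0.00. In dd-2 against dek4-2 it was 0.10, and -0.01 with that scaling, beside 0.07 and -0.04 over all genes. Leaving out 1 library, it ran from 0.10 to 0.23 in dd-2 against Col-0 and from 0.02 to 0.11 in dek3-2 against Col-0. In dek4-2 against Col-0 it ran from -0.04 without dek4-2 replicate 2 to 0.18 without dek4-2 replicate 1. Depth limits JAZ7 and JAZ8 most, whose values rest on few fragments.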

Other observations

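ST2A and TCH4 were named after their values were seen. ST2A, a sulfotransferase that inactivates hydroxylated jasmonate, had 16.8 and 12.6 FPKM in dd-2 replicates 1 and 2, 10.2 and 5.20 in dek3-2, 11.3 and 6.001 in dek4-2, and 9.60 and 6.51 in Col-0, so replicate 1 was higher in all 4 genotypes. TCH4, a touch-induced cell wall enzyme, had 33.0 and 40.7 FPKM in dd-2, 23.3 and 32.5 in dek3-2, 20.2 and 37.0 in dek4-2, and 16.7 and 52.2 in Col-0, so replicate 2 was higher in all 4.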
